A study of Mus musculus with 4 samples.

Results

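The collagen genes were taken as every gene whose symbol has the form Col, number, a, number. This gave 44 of the 32285 genes measured, and they were followed by Sun1 genotype in tumour nuclei, in states of those nuclei and in host nuclei. The nuclei came from tumours of CT26, a mouse line derived from a BALB/c colon carcinoma, which were grown under the skin of BALB/c hosts and taken on day 14, then digested with collagenase IV and DNase. The injected CT26 cells had Sun1 knocked out (Sun1_KO) or carried the wild-type gene (Sun1_WT), and nothing else in the labels differed between the genotypes. The Sun1 protein spans the inner nuclear membrane and links the nuclear lamina to the cytoskeleton. RNA and open chromatin were read from the same nuclei, with 1 expression library and 1 accessibility library per genotype. The labels do not say how many animals or clones a library holds. With 1 library per genotype no difference could be tested, and every interval below is a 95% interval for counting error alone.

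Collagens are secreted proteins in which several chains wind into a helix, are trimmed outside the cell and assemble into fibrils, sheets or filaments. Type I and type III fibrils give tissue its tensile strength, type IV sheets underlie epithelium and endothelium, and type VI filaments join both kinds of matrix. In most solid tumours fibroblasts of the host are the best known source of fibrillar collagen, although mesenchymal tumour cells can make it too.

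After filtering, the Sun1_KO expression library held 2172 nuclei with a median of 12745 UMIs (counted RNA molecules) and the Sun1_WT library 3345 nuclei with a median of 14268. Of these kept nuclei, 10 barcodes occurred in both libraries. Nuclei with high tumour markers, no Xist and at most 1 Ptprc UMI were called tumour nuclei, which gave 1290 Sun1_KO and 2450 Sun1_WT nuclei. Xist, the RNA of the inactive X chromosome, marked host nuclei. The tumour gate rested almost wholly on Hmga2, at 4490 CPM (counts-per-million) in Sun1_KO and 2839 CPM in Sun1_WT tumour nuclei, against 5.07 and 5.83 CPM in Sun1_KO and Sun1_WT macrophage-like nuclei. The epithelial keratin Krt8 was nearly absent, with 3 UMIs in Sun1_KO and 4 in Sun1_WT tumour nuclei. Krt18, on the same list of tumour markers, had 1 UMI in Sun1_KO and 283 UMIs (6.75 CPM) in Sun1_WT tumour nuclei. Sun1 itself had 63.9 CPM in Sun1_KO and 105 CPM in Sun1_WT tumour nuclei, a log2 ratio of -0.71 (-0.80 to -0.63). The labels do not give the edited stretch of Sun1, so RNA from it and from the rest of the gene cannot be told apart. The mitochondrial share of UMIs in tumour nuclei was 11.3% in Sun1_KO and 6.99% in Sun1_WT.

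Tumour nuclei of both genotypes carried abundant collagen RNA. All 44 genes summed to 3432 CPM in Sun1_KO and 3366 CPM in Sun1_WT tumour nuclei, a log2 ratio of 0.03 (0.01 to 0.04). After each nucleus was thinned to 3000 UMIs, a tumour nucleus held on average 9.86 ± 5.10 collagen UMIs in Sun1_KO (SD over 1259 nuclei) and 10.2 ± 5.69 in Sun1_WT (SD over 2405 nuclei). Macrophage-like nuclei held 1.12 in Sun1_KO and 0.733 in Sun1_WT at the same depth. This is only a rough measure of free RNA. Before thinning, Col14a1, which was higher there than in tumour nuclei, gave 57 of their 486 collagen UMIs in Sun1_KO and 88 of 327 in Sun1_WT. At least 1 collagen UMI was found in 99.5% of Sun1_KO and 99.7% of Sun1_WT thinned tumour nuclei. The same held for 59.4% of Sun1_KO and 51.1% of Sun1_WT thinned macrophage-like nuclei. A single UMI is thus common outside tumour nuclei, and this share alone does not show that nearly every tumour nucleus expressed collagen.

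By CPM per kilobase, the main chains were the same in both genotypes. Per kilobase of gene span, Col1a2, the second chain of type I collagen, led with 30.0 CPM in Sun1_KO and 31.9 CPM in Sun1_WT tumour nuclei. Col3a1, the chain of type III collagen, followed with 10.9 CPM per kilobase in Sun1_KO and 11.3 in Sun1_WT. Col1a1, the first chain of type I collagen, had 5.69 and 6.55, Col8a1, a short-chain collagen of vessel walls and the cornea, 5.26 and 4.99, and Col6a1, a chain of type VI filaments, 3.56 and 3.88 CPM per kilobase in Sun1_KO and Sun1_WT. These 5 genes held the first 5 places in both libraries, in the same order. Neighbours in that order below the fifth place changed ranks between the libraries, as Col10a1 was ninth in Sun1_KO and sixth in Sun1_WT. The order depends on the length correction. By CPM alone Col1a2, Col8a1 and Col3a1 led in both libraries. Next were Col4a5 (228 CPM) and Col4a1 (202 CPM) in Sun1_KO, but Col4a1 (208 CPM) and then Col4a5 (167 CPM) in Sun1_WT.

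The stretches just upstream of the RefSeq start are shown for 3 of the abundant chains and for Col10a1, because RNA and accessibility of these genes are set side by side further on. They are from RefSeq on GRCm38.p6, read 5′ to 3′ on the strand of the gene, and capitals mark 3 motifs searched on both strands. These are the CCAAT box, the GC box with the letters GGGCGG, and a TATA motif with the letters TATAAA. The Col1a2 stretch is chr6:4505368-4505617 on the plus strand, Col3a1 chr1:45311288-45311537 plus, Col8a1 chr16:57754738-57754987 minus and Col10a1 chr10:34389731-34389980 plus.
Col1a2: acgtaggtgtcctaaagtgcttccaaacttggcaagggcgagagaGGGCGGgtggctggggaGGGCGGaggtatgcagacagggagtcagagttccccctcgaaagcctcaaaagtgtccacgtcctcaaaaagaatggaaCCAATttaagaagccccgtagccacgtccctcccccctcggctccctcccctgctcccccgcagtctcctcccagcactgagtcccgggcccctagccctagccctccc
Col3a1: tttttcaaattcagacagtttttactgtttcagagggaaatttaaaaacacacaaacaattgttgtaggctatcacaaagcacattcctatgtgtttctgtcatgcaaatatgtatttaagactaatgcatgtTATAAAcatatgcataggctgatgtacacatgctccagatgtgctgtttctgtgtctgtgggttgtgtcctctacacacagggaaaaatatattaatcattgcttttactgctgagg
Col8a1: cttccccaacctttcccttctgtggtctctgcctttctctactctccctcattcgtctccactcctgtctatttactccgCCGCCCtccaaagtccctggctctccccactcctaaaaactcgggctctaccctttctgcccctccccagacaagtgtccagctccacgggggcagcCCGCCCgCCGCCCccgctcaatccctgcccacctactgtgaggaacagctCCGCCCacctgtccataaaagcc
Col10a1: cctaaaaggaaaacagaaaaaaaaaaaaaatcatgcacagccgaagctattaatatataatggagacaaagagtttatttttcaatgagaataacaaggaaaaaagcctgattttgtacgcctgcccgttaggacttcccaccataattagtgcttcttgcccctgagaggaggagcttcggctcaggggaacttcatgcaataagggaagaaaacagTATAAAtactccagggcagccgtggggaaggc

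The abundant Col1a2 and Col8a1 stretches were rich in G and C, at 62% and 60.8%, and held GC boxes, 2 and 4 of them. The Col3a1 and Col10a1 stretches had 35.2% and 41.6% G and C and 1 TATA motif each, 117 bases before the start in Col3a1 and 32 bases in Col10a1. The only CCAAT box lay 109 bases before the Col1a2 start. Among 32851 mouse promoter windows of the same length, 32.7% held a GC box, 33.8% a CCAAT box and 12.4% a TATA motif. Among the 38 windows of the 35 collagen genes with an entry, 57.9% held a GC box, 34.2% a CCAAT box and 13.2% a TATA motif. A match describes letters in these windows only.

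**Figure D1:**
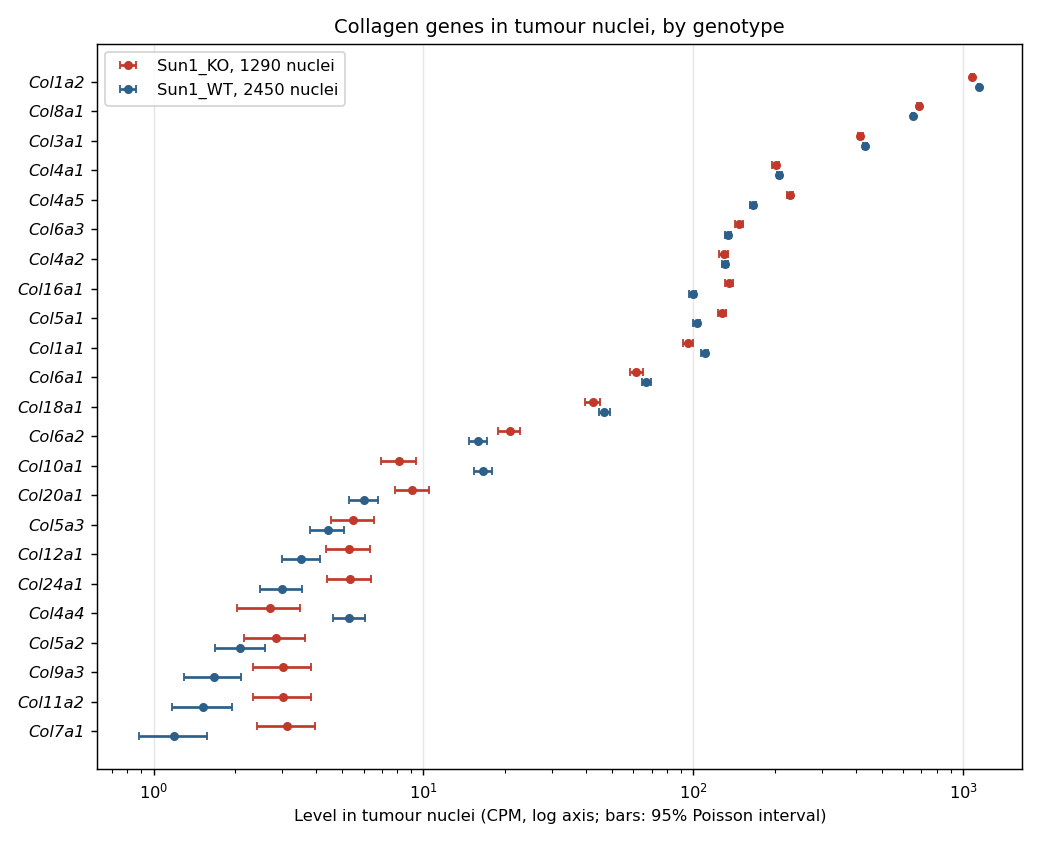
Level of each of 23 collagen genes with at least 100 summed UMIs in tumour nuclei, in CPM on a log axis, for Sun1_KO (1290 nuclei) and Sun1_WT (2450 nuclei), 1 library each, with 95% Poisson intervals. The points of the genotypes lie within 1.5-fold of each other from Col1a2, at 1079 and 1147 CPM, down to Col6a2. Of the scarcer genes, Col7a1 lies furthest apart, with 3.11 CPM in Sun1_KO and 1.19 CPM in Sun1_WT. Col10a1, with 8.13 and 16.7 CPM, Col11a2, with 3.02 and 1.53 CPM, and Col4a4, with 2.69 and 5.32 CPM, follow.

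To ask what Sun1 genotype did to collagen expression, the 23 genes with at least 100 summed UMIs in tumour nuclei were compared as log2 ratios of CPM, Sun1_KO over Sun1_WT. Past 1.5-fold, 6 of them were higher and 2 lower in Sun1_KO, and the other 15 lay within it. Among all 12756 genes compared in the same nuclei, 19.9% passed 1.5-fold, 10.5% on the higher and 9.45% on the lower side. The median log2 ratio was 0.31 over the 23 collagen genes and 0.13 over all genes. With TMM or median-ratio scaling, which put the median of all genes at -0.07 and 0.00, the ratio of Col8a1 turned below 0. That of Col6a3 did so with TMM. With either scaling 4 genes in place of 6 were higher, where 4.65% of all genes were with TMM and 6.2% with median-ratio scaling. The 6 higher genes were all scarce. The tumour levels of Col7a1, Col9a3, Col11a2, Col12a1 and Col20a1 lay within their intervals in macrophage-like nuclei, given with the host nuclei below. Among the 9 collagen genes with 100 to 499 summed UMIs, 6 were higher and 1 lower, where the share of all such genes was 22.1% higher and 16% lower. Among the 14 with 500 or more, 0 were higher and 1 was lower, where the shares were 7.27% and 7.64%.

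The 11 fibrillar genes summed to 1735 CPM in Sun1_KO and 1804 CPM in Sun1_WT tumour nuclei, and their abundant members lay close to a log2 ratio of 0. Col1a2 had 23239 UMIs (1079 CPM) in Sun1_KO and 48115 UMIs (1147 CPM) in Sun1_WT tumour nuclei, a log2 ratio of -0.09. Col3a1 had 416 CPM in Sun1_KO and 432 CPM in Sun1_WT, and Col1a1 95.7 CPM in Sun1_KO and 110 CPM in Sun1_WT, with log2 ratios of -0.05 and -0.20. Type V collagen starts and limits fibril growth, and its chain Col5a1 had 128 CPM in Sun1_KO and 103 CPM in Sun1_WT, a log2 ratio of 0.31. Its partners were scarce, Col5a2 with 61 UMIs (2.83 CPM) in Sun1_KO and 88 UMIs (2.10 CPM) in Sun1_WT, and Col5a3 with 118 UMIs (5.48 CPM) and 185 UMIs (4.41 CPM). The minor fibrillar chains Col11a2 and Col24a1, known from cartilage and developing bone, were 1.5-fold or more higher. Col11a2 had 65 UMIs (3.02 CPM) in Sun1_KO and 64 UMIs (1.53 CPM) in Sun1_WT, a log2 ratio of 0.98, and Col24a1 115 UMIs (5.34 CPM) and 125 UMIs (2.98 CPM), a log2 ratio of 0.84. The sum over the class had a log2 ratio of -0.06 (-0.07 to -0.04).

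Of the fibril-associated collagens, which sit on the surface of fibrils, 4 were compared and 3 were at least 1.5-fold higher in Sun1_KO, each with 100 to 499 UMIs, where 22.1% of all genes were. Of the 3, Col12a1 and Col20a1 lost the call with TMM scaling (0.38 and 0.39), median-ratio scaling (0.45 and 0.47) and mitochondrial genes kept in the total (0.52 and 0.53). They also lost it with the mean over nuclei of each nucleus's own CPM (0.57 and 0.52). Col12a1 lost it too in nuclei of 10000 UMIs or more (0.50) and without nuclei with Pi16, Thy1, Lum or Mfap5 UMIs (0.54). Over all alternatives Col12a1 and Col20a1 ranged from 0.38 to 0.87 and from 0.39 to 0.75. Col16a1, the abundant member, had 2925 UMIs (136 CPM) in Sun1_KO and 4166 UMIs (99.3 CPM) in Sun1_WT, a log2 ratio of 0.45. Col12a1, a long bridging chain, had 114 UMIs (5.29 CPM) in Sun1_KO and 148 UMIs (3.53 CPM) in Sun1_WT, a log2 ratio of 0.59. Col20a1 had 9.10 CPM in Sun1_KO and 6.01 CPM in Sun1_WT, and Col9a3, a chain of cartilage type IX collagen, 3.02 CPM in Sun1_KO and 1.67 CPM in Sun1_WT, with log2 ratios of 0.60 and 0.86. The class as a whole had 155 CPM in Sun1_KO and 112 CPM in Sun1_WT, most of it Col16a1. Col7a1, which forms the anchoring fibrils below the epidermis, had the highest ratio of the 23 genes, from few counts. It had 67 UMIs (3.11 CPM) in Sun1_KO and 50 UMIs (1.19 CPM) in Sun1_WT, a log2 ratio of 1.38 (0.83 to 1.94), and stayed between 1.17 and 1.58 in every alternative setting that could compare it.

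The basement membrane genes lie head to head in pairs, which are given here pair by pair. Col4a1 had 4352 UMIs (202 CPM) in Sun1_KO and 8739 UMIs (208 CPM) in Sun1_WT, a log2 ratio of -0.04 (-0.10 to 0.01). Its neighbour Col4a2 had 2790 UMIs (130 CPM) and 5479 UMIs (131 CPM), a log2 ratio of -0.01 (-0.08 to 0.05). This pair, whose products are chains that join in the common type IV molecule, kept 0.641 Col4a2 UMIs per Col4a1 UMI in Sun1_KO and 0.627 in Sun1_WT. Col4a5, on the X chromosome, had 4919 UMIs (228 CPM) in Sun1_KO and 6986 UMIs (167 CPM) in Sun1_WT, a log2 ratio of 0.46 (0.40 to 0.51). Its neighbour Col4a6 had only 7 UMIs (0.325 CPM) in Sun1_KO and 37 UMIs (0.882 CPM) in Sun1_WT, a log2 ratio of -1.36 (-2.85 to -0.26). Tumour nuclei thus held Col4a5 RNA nearly without that of its head-to-head partner. Col4a4, a chain of the kidney filter, had 58 UMIs (2.69 CPM) in Sun1_KO and 223 UMIs (5.32 CPM) in Sun1_WT, a log2 ratio of -0.97 (-1.42 to -0.56). Its neighbour Col4a3 had 6 UMIs in Sun1_KO and 15 UMIs in Sun1_WT, a log2 ratio of -0.29 (-2.01 to 1.09), too few to tell a difference.

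Type VI collagen is built from Col6a1, Col6a2 and Col6a3, and all 3 lay within 1.5-fold. Col6a1 had 61.4 CPM in Sun1_KO and 66.9 CPM in Sun1_WT, and Col6a3 147 CPM in Sun1_KO and 134 CPM in Sun1_WT, with log2 ratios of -0.12 and 0.13. Col6a2 had 20.8 CPM in Sun1_KO and 15.9 CPM in Sun1_WT, a log2 ratio of 0.39, so that Col6a1 UMIs per Col6a2 UMI came to 2.95 (2.65 to 3.29) in Sun1_KO and 4.21 (3.87 to 4.59) in Sun1_WT. Col18a1, the source of endostatin, had 42.3 CPM in Sun1_KO and 46.8 CPM in Sun1_WT. The short-chain collagens went apart. Col8a1 had 14777 UMIs (686 CPM) in Sun1_KO and 27321 UMIs (651 CPM) in Sun1_WT, a log2 ratio of 0.08. Col10a1, the collagen of hypertrophic cartilage, had 175 UMIs (8.13 CPM) in Sun1_KO and 699 UMIs (16.7 CPM) in Sun1_WT, a log2 ratio of -1.03 (-1.28 to -0.80), the lowest of the 23. Col10a1 was concentrated in few nuclei, as it had a UMI in 5.43% of Sun1_KO and 7.22% of Sun1_WT tumour nuclei. The 1% of nuclei richest in it held 55.4% of its UMIs in Sun1_KO and 52.8% in Sun1_WT.

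**Figure D2:**
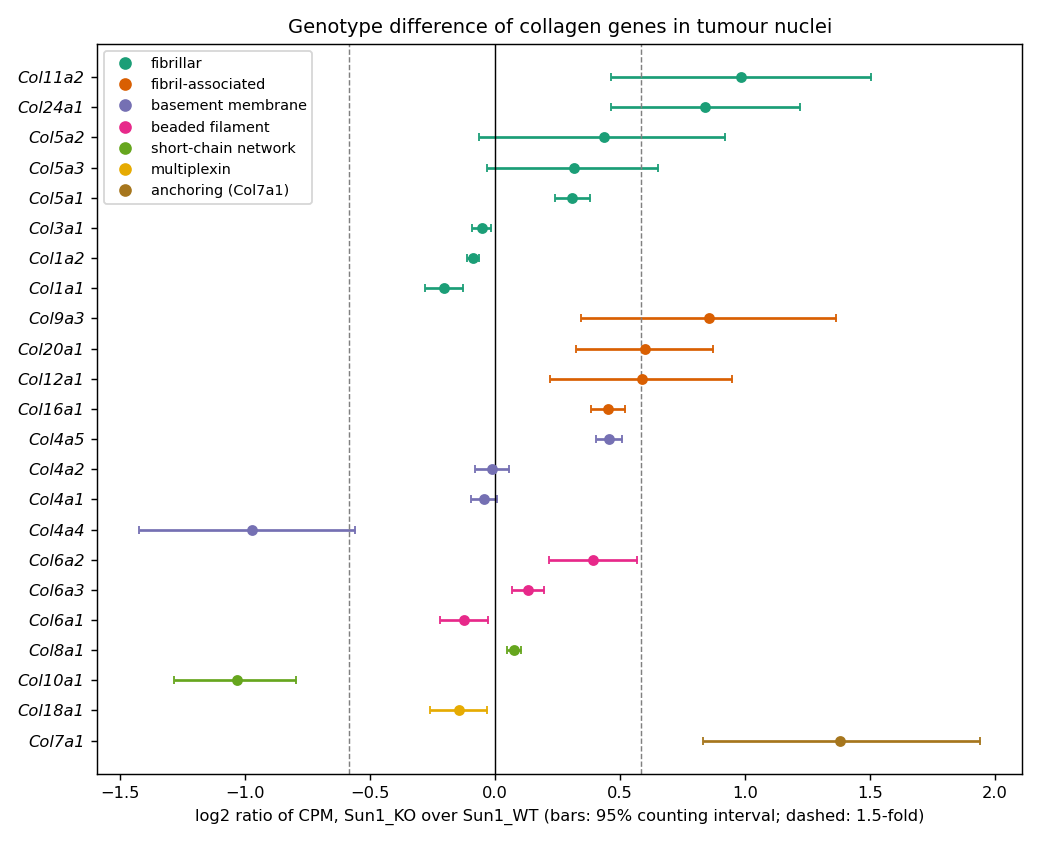
log2 ratio of CPM in tumour nuclei, Sun1_KO over Sun1_WT, for 23 collagen genes grouped by structural class, with 95% counting intervals and dashed lines at 1.5-fold. Abundant genes such as Col1a2 and Col4a1 sit near 0 with short bars, Col7a1 is highest at 1.38 and Col10a1 lowest at -1.03.

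The other 21 collagen genes had fewer than 100 summed UMIs in tumour nuclei and were not compared. Col28a1 had 52 UMIs in Sun1_KO and 35 in Sun1_WT, Col23a1 50 and 42, Col15a1 32 and 19, and Col14a1 23 and 48. Col8a2 had 18 UMIs in Sun1_KO and 40 in Sun1_WT, Col25a1 16 and 17, Col22a1 15 and 29, and Col11a1 3 and 20. Col6a5 had 6 and 15. A further 10 genes had at most 7 UMIs in either library: Col2a1, Col6a4, Col6a6, Col9a1, Col9a2, Col13a1, Col17a1, Col19a1, Col26a1 and Col27a1. Col27a1 had 0 UMIs in both, where 3 UMIs would have been 0.139 CPM in Sun1_KO and 0.0715 CPM in Sun1_WT.

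Tumour nuclei and fibroblasts differed in the balance between partner chains. Only 3 fibroblast-like nuclei per library passed the gate, so their values describe these nuclei and no genotype difference was read from them. In tumour nuclei Col1a2 had 11.3 (10.8 to 11.8) UMIs per Col1a1 UMI in Sun1_KO and 10.4 (10.1 to 10.7) in Sun1_WT. In fibroblast-like nuclei it had 2.97 (2.30 to 3.89) in Sun1_KO and 1.39 (1.26 to 1.53) in Sun1_WT. Type I collagen is usually made of more first than second chains, and tumour nuclei had the second chain in large excess by UMIs. Type V chains differed between these gates as well. Col5a1 had 45.1 (35.0 to 59.1) UMIs per Col5a2 UMI in Sun1_KO and 49.2 (39.8 to 61.4) in Sun1_WT tumour nuclei, but 0.609 (0.366 to 0.995) and 0.702 (0.521 to 0.942) in Sun1_KO and Sun1_WT fibroblast-like nuclei. These ratios are not corrected for gene length, which does not differ between gates.

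**Figure D3:**
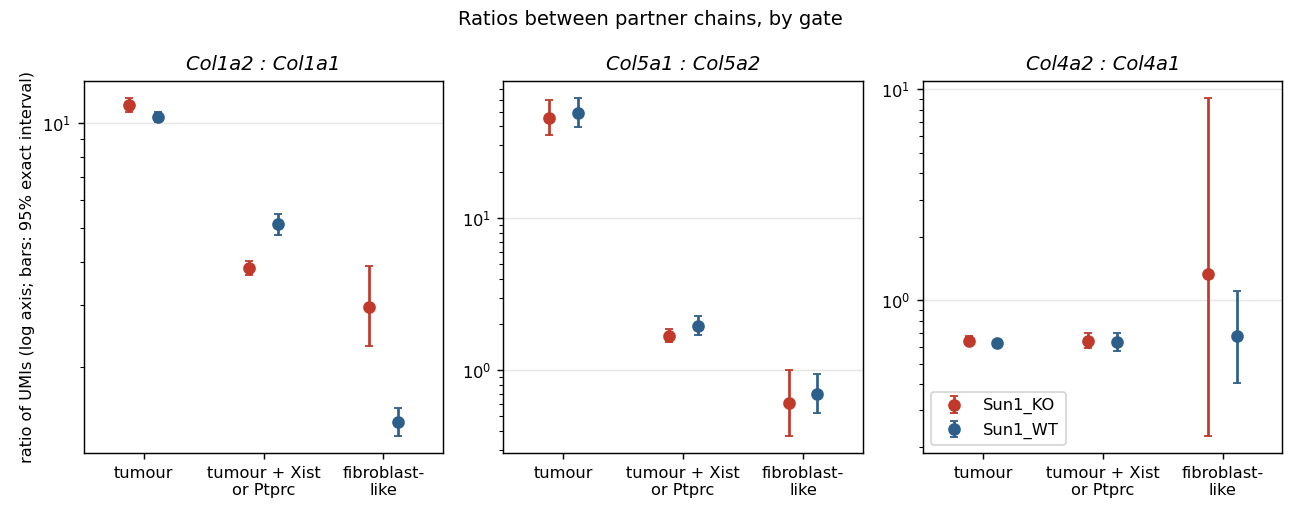
UMIs of one collagen chain per UMI of its partner, on log axes, in tumour nuclei, in nuclei with tumour markers plus Xist or Ptprc, and in 3 fibroblast-like nuclei per library, with 95% exact intervals. Col1a2 to Col1a1 and Col5a1 to Col5a2 are highest in tumour nuclei of both genotypes, at 11.3 and 45.1 in Sun1_KO, while Col4a2 to Col4a1 is near 0.64 in both tumour gates and rests on 4 and 3 UMIs in the Sun1_KO fibroblast-like nuclei.

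Where the RNA of a gene sat therefore mattered for its genotype ratio. Nuclei that had tumour markers together with Xist or Ptprc, 217 in Sun1_KO and 190 in Sun1_WT, were left out of the tumour gate. They held 41.7% of all Col1a1 UMIs in Sun1_KO and 15.7% in Sun1_WT, and 67.2% and 52.9% of all Col5a2 UMIs. With these nuclei let in, Col1a1 had a log2 ratio of 0.41 in place of -0.20, and Col5a2 1.63 in place of 0.44. Nuclei with Xist and at least 4 fibroblast markers, 21 in Sun1_KO and 16 in Sun1_WT, made up 0.967% and 0.478% of nuclei but 65.6% and 78.3% of all Col5a2 UMIs. Whether such nuclei are pairs of a tumour and a host nucleus was not tested. Col1a2 depended less on them, with a log2 ratio of 0.02 when the mixed nuclei were let in.

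Collagen RNA was next compared between states of the tumour nuclei. A state was the fifth of tumour nuclei, over both libraries and with at least 3000 UMIs, that had the highest summed CPM of its markers, so it is a range of a score and not a cell type. The decorin-high state, set by Dcn and Lum, small proteoglycans that bind collagen fibrils, held 122 of 1259 Sun1_KO nuclei (9.69%) and 611 of 2405 Sun1_WT nuclei (25.4%). Within 1.25-fold of its threshold lay 61 Sun1_KO and 142 Sun1_WT nuclei. Summed collagen was 5403 CPM in the decorin-high and 3303 CPM in the other tumour nuclei of Sun1_KO, and 5206 CPM in the decorin-high and 2966 CPM in the other tumour nuclei of Sun1_WT.

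In the decorin-high nuclei 10 of 18 compared collagen genes were at least 1.5-fold higher than in the other tumour nuclei of Sun1_KO, and 14 of 19 in Sun1_WT, and 0 were lower in either. Over all genes the shares were 12.8% higher and 17.9% lower in Sun1_KO, and 13.8% and 13.6% in Sun1_WT. Col3a1 had 1131 CPM in decorin-high and 369 CPM in other nuclei of Sun1_KO, and 1050 and 297 CPM in Sun1_WT, log2 ratios of 1.62 (1.53 to 1.70) and 1.82 (1.78 to 1.86). Col10a1 had 39.5 and 6.04 CPM in Sun1_KO, and 61.2 and 6.98 CPM in Sun1_WT, log2 ratios of 2.72 (2.21 to 3.19) and 3.13 (2.90 to 3.36). Col12a1 had log2 ratios of 2.34 in Sun1_KO and 1.96 in Sun1_WT, and Col6a1 1.12 and 1.45. Col8a1 went the other way in both libraries. It had 501 CPM in decorin-high and 698 CPM in other nuclei of Sun1_KO, and 536 and 676 CPM in Sun1_WT, log2 ratios of -0.48 (-0.59 to -0.37) and -0.33 (-0.38 to -0.29).

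Of the 8 fibroblast markers none was at 0 in tumour nuclei, and they summed to 206 CPM in Sun1_KO and 502 CPM in Sun1_WT, of which Dcn gave 137 and 449 CPM. The decorin-high nuclei had Xist at 0 UMIs by the gate and Hmga2 at 2976 CPM in Sun1_KO and 1836 CPM in Sun1_WT, against 4587 and 3055 CPM in the other tumour nuclei of Sun1_KO and Sun1_WT. The fibroblast genes Pi16, Thy1 and Lum summed to 56.2 CPM in Sun1_KO and 29.6 CPM in Sun1_WT decorin-high nuclei. In the other tumour nuclei they summed to 2.28 and 1.86 CPM. Lum is also a marker of the state, so the selection itself can raise this sum. Over all Sun1_KO tumour nuclei Lum had 86 UMIs, Pi16 12 and Thy1 23. Over all Sun1_WT tumour nuclei Lum had 222 UMIs, and Pi16 and Thy1 32 each. The share of Lum within the state is not given here, so the rise cannot be read as fibroblast RNA. Pdgfra, Dpt, Fap and Mfap5 are not given by state either. Col1a2 UMIs per Col1a1 UMI were 17.2 in Sun1_KO and 14.6 in Sun1_WT decorin-high nuclei, against 10.9 and 9.37 in the other tumour nuclei of Sun1_KO and Sun1_WT, which lie nearer the fibroblast-like values. Col5a1 UMIs per Col5a2 UMI were 23.6 in Sun1_KO and 31.7 in Sun1_WT decorin-high nuclei, themselves nearer the fibroblast-like values than the 49.3 and 64.2 of the other tumour nuclei. The ratios of these chain pairs thus moved in opposite directions relative to fibroblast-like nuclei. Median depth was 10726 UMIs in Sun1_KO and 11330 in Sun1_WT decorin-high nuclei, against 16923 and 18743 in the others. The part of depth and of fibroblast RNA in these differences was not tested.

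In the G2/M state, the range of nuclei with the highest G2/M marker score, several collagen genes were lower. Median depth was 22486.5 UMIs in Sun1_KO and 26490 in Sun1_WT nuclei of this state, against 15015 and 15348.5 in the other tumour nuclei, and its part in the differences was not tested. Here 5 of 18 collagen genes were at least 1.5-fold lower than in the other tumour nuclei of Sun1_KO and 7 of 19 in Sun1_WT, and 0 were higher in either, while over all genes 7.94% and 10.4% were lower and 6.87% and 6.97% higher. Col3a1 had 241 CPM in G2/M and 487 CPM in other nuclei of Sun1_KO, and 229 and 510 CPM in Sun1_WT, log2 ratios of -1.02 and -1.15. Col10a1 had log2 ratios of -1.77 in Sun1_KO and -3.91 in Sun1_WT. Col8a1 was nearly level in this state, at -0.04 in Sun1_KO and 0.14 in Sun1_WT. In the hypoxic state 2 of 18 genes in Sun1_KO and 3 of 19 in Sun1_WT were lower, and 0 were higher, where 9.31% and 8.54% of all genes were lower and 3.72% and 3.26% higher. In the S phase state 3 of 18 and 2 of 19 were lower, and 0 were higher, where 4.06% and 4.56% of all genes were lower and 5.82% and 6.76% higher. In the interferon state 1 of 18 and 4 of 19 were higher and 1 was lower in each library, where 3.17% and 4.79% of all genes were higher and 1.42% and 2.2% lower.

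**Figure D4:**
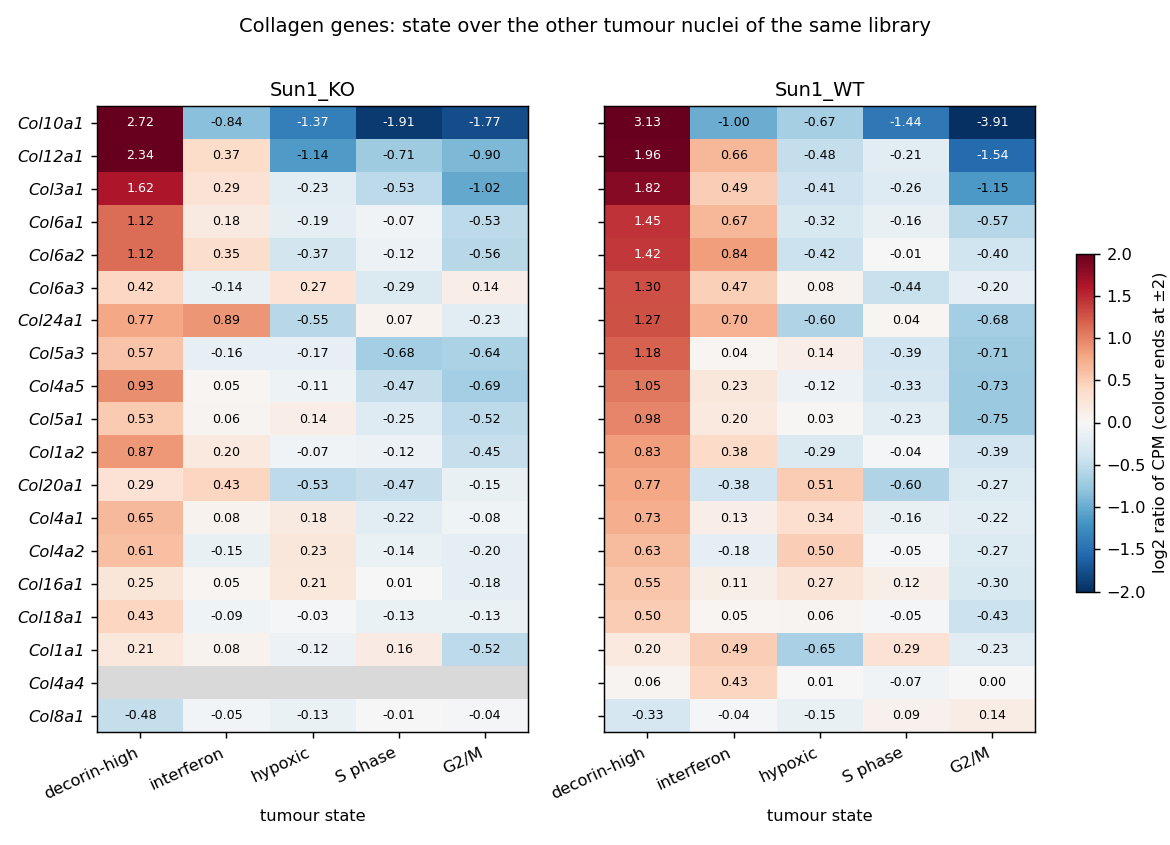
log2 ratio of CPM of each collagen gene in a tumour state over the other tumour nuclei of the same library, Sun1_KO on the left and Sun1_WT on the right, with genes ordered by the decorin-high column of Sun1_WT and colours ending at 2. Grey marks a gene with fewer than 100 UMIs. The decorin-high column is positive for every gene but Col8a1, and the G2/M column is negative for most.

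Because the decorin-high state was smaller in Sun1_KO, the genotype ratios were also taken within each state. In the decorin-high state 14 collagen genes were compared, with 0 higher (9.46% of all genes) and 1 lower (12.3% of all genes). The lower gene was Col10a1 with a log2 ratio of -0.62. In the hypoxic state 14 were compared, with 0 higher (9.72%) and 1 lower (8.9%), again Col10a1, at -1.75. In the G2/M state 1 of 14 was higher (10.8%), Col20a1 at 0.69, and 0 were lower (10.2%). In the S phase state all 13 compared lay within 1.5-fold, where 9.12% of all genes were higher and 10% lower. In the interferon state all 13 did so as well, where 8.39% were higher and 9.92% lower. Without the decorin-high nuclei Col10a1 had a log2 ratio of -0.19, where it was -1.03 over all tumour nuclei, and Col3a1 had 0.31, where it was -0.05. Col4a5 stayed above 0 in all 5 states, between 0.30 and 0.52, and Col16a1 between 0.24 and 0.54.

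Accessibility was read in 113805 regions that overlapped between the peaks of the Sun1_KO and Sun1_WT libraries. Accessibility levels are CPM of the counts in shared regions. Shared regions within a gene or 1 kb of its ends were found for 41 of 44 collagen genes. Of these loci 2 were at least 1.5-fold more accessible in Sun1_KO tumour nuclei and 0 less, where 2.99% of 18625 gene loci were higher and 1.83% lower. The median log2 ratio was 0.06 over the collagen loci and 0.00 over all loci.

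The first of the 2 loci was Col12a1, with 61.8 CPM in Sun1_KO and 37.4 in Sun1_WT over 14 regions, a log2 ratio of 0.72 (0.66 to 0.79). The regions within 2 Mb of it had a log2 ratio of 0.02. Its RNA was higher as well, with a log2 ratio of 0.59. The second was Col27a1, with 8.95 and 5.45 CPM and a log2 ratio of 0.72 (0.54 to 0.89), although no Col27a1 RNA was counted in tumour nuclei. Col7a1 had a locus ratio of 0.30 (0.22 to 0.37), and the region over its start had 9.47 CPM in Sun1_KO and 6.29 in Sun1_WT, a log2 ratio of 0.59 (0.42 to 0.76). For Col10a1 the RNA and accessibility ratios, each summed over all tumour nuclei, had opposite signs. The region over its start, which holds the TATA motif shown above, had 2.70 CPM in Sun1_KO and 2.11 in Sun1_WT, a log2 ratio of 0.36 (0.04 to 0.66), while its RNA was lower in Sun1_KO. Col4a4 likewise had a locus ratio of 0.20 (0.05 to 0.34) with lower RNA in Sun1_KO.

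**Figure D5:**
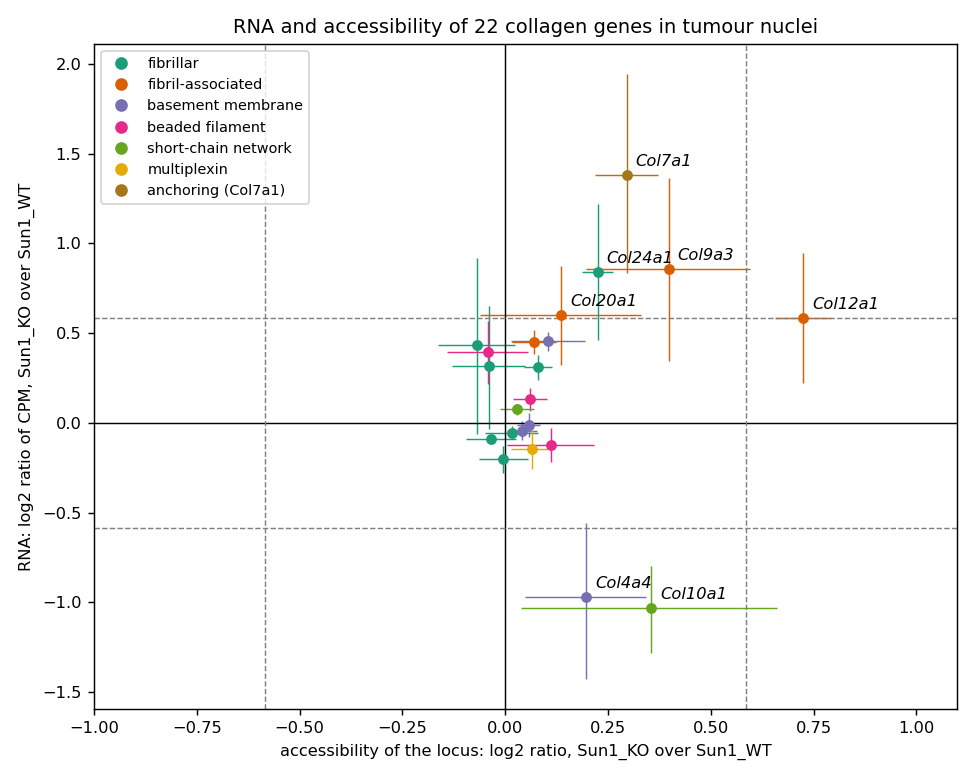
RNA ratio against the accessibility ratio of the locus in tumour nuclei, both log2 and Sun1_KO over Sun1_WT, for 22 collagen genes, with 95% counting intervals and dashed lines at 1.5-fold. Most genes cluster near 0 in accessibility, Col12a1 lies at 0.72, and Col10a1 and Col4a4 lie right of 0 in accessibility but near -1 in RNA. Both ratios are sums over all tumour nuclei, while Col10a1 RNA came from few of them.

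A start region was shared between the libraries for 16 of the 35 collagen genes with a promoter window. The Col1a2 start had 38.9 CPM in Sun1_KO and 42.1 in Sun1_WT tumour nuclei, against 1.21 and 0.18 in Sun1_KO and Sun1_WT macrophage-like nuclei. The Col3a1 start had 18.7 and 16.8 in tumour nuclei, against 0.40 in Sun1_KO macrophage-like nuclei and 0 counts in Sun1_WT ones. Col8a1 had 11.9 in Sun1_KO and 12.3 in Sun1_WT tumour nuclei, with 0 counts in Sun1_KO and 1 count in Sun1_WT macrophage-like nuclei. These starts were open in tumour nuclei and nearly closed in macrophage-like ones. Over whole loci, 32 of 41 collagen genes were at least 1.5-fold more accessible in tumour than in macrophage-like nuclei of Sun1_KO, and 32 of 41 in Sun1_WT, where 29.4% and 28.9% of all loci were.

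The decorin-high state was also read in chromatin. At least 1.5-fold more accessible than in other tumour nuclei were 5 of 41 collagen loci in Sun1_KO and 4 of 41 in Sun1_WT, and 8 and 2 were less accessible. Over all loci the shares were 3.33% and 2.83% more, and 9.04% and 7.67% less, in Sun1_KO and Sun1_WT. The loci higher in both libraries were Col8a2, Col12a1 and Col14a1. Col12a1 had log2 ratios of 0.59 (0.43 to 0.74) in Sun1_KO and 0.83 (0.72 to 0.93) in Sun1_WT. The start of Col6a3 stood out, with 29.6 CPM in decorin-high and 13.6 in other tumour nuclei of Sun1_KO, and 27.6 and 12.0 in Sun1_WT, log2 ratios of 1.13 (0.84 to 1.39) and 1.20 (1.04 to 1.36). The start of Col3a1, whose RNA was higher in this state, had log2 ratios of 0.20 (-0.13 to 0.50) in Sun1_KO and 0.54 (0.38 to 0.70) in Sun1_WT. The start of Col8a1 was level, at 0.01 in both.

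Host nuclei held little collagen RNA apart from rare cells. In 181 Sun1_KO and 209 Sun1_WT macrophage-like nuclei, with median depths of 5283 and 5230 UMIs, collagen summed to 493 CPM in Sun1_KO and 272 CPM in Sun1_WT. Only 2 collagen genes reached 100 summed UMIs there, and neither passed 1.5-fold, where 5.66% of all genes were higher and 5.24% lower. Col1a2 had 105 UMIs (106 CPM) in Sun1_KO and 88 UMIs (73.2 CPM) in Sun1_WT. It had a UMI in 27.5% of Sun1_KO and 18.9% of Sun1_WT macrophage-like nuclei thinned to 3000 UMIs, against 90.6% and 91.2% of thinned tumour nuclei of Sun1_KO and Sun1_WT. Col14a1, a fibril-associated collagen, was higher in macrophage-like than in tumour nuclei of both libraries. It had 57.8 CPM in Sun1_KO and 73.2 CPM in Sun1_WT macrophage-like nuclei, and 1.07 and 1.14 CPM in Sun1_KO and Sun1_WT tumour nuclei. Col20a1 had 9.10 CPM in Sun1_KO and 6.01 CPM in Sun1_WT tumour nuclei. These lie within its intervals in macrophage-like nuclei, 10.1 CPM (4.86 to 18.7) in Sun1_KO and 9.99 CPM (5.16 to 17.4) in Sun1_WT. The tumour levels of Col7a1, Col9a3, Col11a2 and Col12a1 lie within their macrophage-like intervals as well, which rest on 0 to 3 UMIs. In Sun1_KO these are 0.03 to 5.65, 0.63 to 8.89, 0 to 3.74 and 0.63 to 8.89 CPM. In Sun1_WT they are 0 to 3.07, 0.02 to 4.64, 0 to 3.07 and 0.20 to 6.01 CPM. The part of free RNA in these tumour levels was not tested. Col8a2 had 0.836 and 0.954 CPM in Sun1_KO and Sun1_WT tumour nuclei. It had only 2 UMIs (2.03 CPM) in Sun1_KO and 5 UMIs (4.16 CPM) in Sun1_WT macrophage-like nuclei. A single Sun1_KO nucleus carried 32 of the 45 Col4a1 UMIs of its gate, so the sums of rare chains there rest on few nuclei.

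In 92 Sun1_KO and 101 Sun1_WT lymphocyte-like nuclei no collagen gene reached 100 summed UMIs. Col1a2 had 34 UMIs (100.5 CPM) in Sun1_KO and 33 UMIs (90.8 CPM) in Sun1_WT. Col8a2 had 11 UMIs (32.5 CPM) in Sun1_KO and 6 UMIs (16.5 CPM) in Sun1_WT, above its levels in tumour nuclei. Of these UMIs, 11 in Sun1_KO and 5 in Sun1_WT lay in the nuclei with most NK cell markers. The 4 Sun1_KO and 2 Sun1_WT endothelial-like nuclei were rich in type IV collagen. Col4a1 had 75 UMIs (2759 CPM) in Sun1_KO and 98 UMIs (5609 CPM) in Sun1_WT, and Col4a2 87 UMIs (3201 CPM) and 91 UMIs (5208 CPM). The fibroblast-like nuclei held 31650 CPM of collagen in Sun1_KO and 77384 CPM in Sun1_WT, led by Col1a2, Col3a1 and Col1a1. With 3 nuclei in each library, these levels carry no genotype comparison.

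The genes that modify, export, cut and bind collagen were followed in tumour nuclei in 5 lists. Of the modification and folding genes 17 of 21 were compared, with 0 higher and 1 lower by 1.5-fold, beside 10.5% and 9.45% of all genes. The lower gene was Ppib, a prolyl isomerase of the endoplasmic reticulum, with 109 CPM in Sun1_KO and 214 CPM in Sun1_WT, a log2 ratio of -0.98 (-1.04 to -0.91). The next lowest were P4ha2, a prolyl 4-hydroxylase subunit, at -0.53, and its partner subunit P4hb at -0.26, and the highest were Tmem38b, an ion channel of that compartment, at 0.51, Crtap, of the prolyl 3-hydroxylase complex, at 0.40 and Fkbp10, a chaperone, at 0.32. All 8 export genes lay within 1.5-fold. Klhl12, which helps enlarge transport coats, had a log2 ratio of 0.45, the coat proteins Sec24d and Sec23a 0.44 and 0.28, and the lowest were Sec13, of the outer coat, at -0.45 and the cargo receptor Mia3 at -0.05.

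Of the processing and crosslinking genes 9 of 14 were compared, with 2 higher and 1 lower, beside the same 10.5% and 9.45% of all genes, which also apply to the next lists. Adamts14, which cuts the amino end of procollagen, had 35.9 CPM in Sun1_KO and 17.9 CPM in Sun1_WT, a log2 ratio of 1.01 (0.86 to 1.16). The lysyl oxidase Loxl3 had 142 and 86.4 CPM, a log2 ratio of 0.71, and its relative Loxl2 0.52. Pcolce, which speeds removal of the carboxyl end, had 265 CPM in Sun1_KO and 403 CPM in Sun1_WT, a log2 ratio of -0.60. Loxl4 and Adamts3 followed at -0.17 each. Of the receptors 8 of 10 were compared, with 1 higher and 2 lower. Mrc2, an uptake receptor for collagen, had 127 CPM in Sun1_KO and 74.2 CPM in Sun1_WT, a log2 ratio of 0.78, followed by Ddr2 at 0.20 and Itga11 at 0.14. The integrin chain Itga2 had 22 UMIs in Sun1_KO and 85 in Sun1_WT, and Lair1, an inhibitory receptor of leukocytes, 41 and 134 UMIs, with log2 ratios of -0.96 and -0.73, and Itgb1 was at -0.35. The 10 macrophage markers summed to 118 CPM in tumour nuclei of each library. The part of free leukocyte RNA in the Lair1 counts was not tested. All 18 genes of TGF-beta signalling were compared, with 2 higher and 0 lower. The ligand Tgfb2 had 7.94 CPM in Sun1_KO and 3.46 CPM in Sun1_WT, a log2 ratio of 1.20, and Ltbp3, which stores the latent ligand, 128 and 73.0 CPM, a log2 ratio of 0.81, and the matrix protein Tgfbi was at 0.50. Among the lowest were the receptor Tgfbr1 at -0.32 and the ligand Tgfb1 at -0.15.

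The authors' deposited table of differential expression lists 15 of the collagen genes. Of these, 14 have in the authors' deposited table a positive log2 fold change with an adjusted p under 0.05, as do 84.9% of its 10156 genes. The median log2 fold change of all genes in the authors' deposited table is 0.59, so its values sit on a shifted scale relative to the ratios above. On that scale the authors' deposited table gives 1.04 for Col4a5 and 0.84 for Col16a1, its highest collagen values besides Col6a2 at 0.85. It gives 0.36 for Col1a2 and 0.28 for Col1a1, below the median of the table. In the authors' deposited table Col10a1 is the only negative collagen gene, at -0.09 with an adjusted p of 0.807. The labels do not say which nuclei entered the authors' deposited table, or what served as replicates in its DESeq2 Wald test. With 1 library per genotype, the p-values of that table cannot measure variation between libraries, and no genotype effect was read from them.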

How the data were processed

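Each library came as a table of raw counts, which the authors deposited for every nucleus, UMIs by gene for expression and counts by peak for accessibility. The submitters' processing notes name mm10, Cell Ranger ARC, Cell Ranger, FastQC, Signac and Seurat, whose versions were not given in the sources used. The authors' deposited table gives baseMean as a signal (mean normalized count), a log2 fold change, a Wald score, and p-values from DESeq2, per the file headers. Its direction, Sun1_KO over Sun1_WT, was read from Ift81, at 3.20 in the authors' deposited table and 2.82 in the counts.

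Nuclei under 500 UMIs, under 300 genes or over 20% mitochondrial UMIs were dropped, 232 Sun1_KO and 110 Sun1_WT nuclei in all. No doublet caller was run, but nuclei with tumour markers and Xist or Ptprc were kept apart. Tumour nuclei had tumour markers at 300 CPM or more from at least 3 UMIs, no Xist and at most 1 Ptprc UMI. Host nuclei had these markers under 100 CPM and at least 2 Xist UMIs, and were named for whichever class had most of its markers (3 or more, no tie). All of these limits were chosen with the data in view, and 17 Sun1_KO and 124 Sun1_WT nuclei lay within 1.5-fold of the tumour threshold. The collagen genes and all lists were chosen with earlier results of these data known.

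For each gate and library, UMIs were summed and scaled to the non-mitochondrial total (CPM). A gene entered a comparison from 100 UMIs over both libraries, as the log2 ratio with 0.5 added to each sum. The 95% intervals (Poisson for a sum, binomial for a share, conditional binomial for a ratio, all exact) and the floor of 3 counts cover counting error only. Levels between genes were set per kilobase of the RefSeq gene span, since nuclear RNA is read across introns. For accessibility, intervals used halved counts, since 75.0% of Sun1_KO and 75.5% of Sun1_WT entries were even. Genes named with values were all members with 100 UMIs, and up to 3 highest and 3 lowest of each list, of which 1 gene is not reported here. Members singled out within states, gates or accessibility were chosen after their values were seen. The functions were tested on simulated data. The work used Python 3.11.15, numpy 2.4.6, pandas 2.3.3, scipy 1.17.1 and matplotlib 3.10.9, with TMM factors from edgeR 4.0.16 in R 4.3.3.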

Additional observations from a re-analysis of the deposited data

Results flagged for a closer look

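Some genotype ratios had opposite signs in 2 groups of nuclei, each from 1 library per genotype, and none of these differences was tested. Col6a3 had a log2 ratio, Sun1_KO over Sun1_WT, of 0.37 in the G2/M state and -0.44 in the decorin-high state. Col3a1 had 0.11 in the decorin-high and -0.26 in the S phase state. Col1a2 had 0.086 in the hypoxic and -0.24 in the interferon state, and Col8a1 0.083 in the hypoxic and -0.057 in the G2/M state. In macrophage-like nuclei Col1a2 had 0.54, against -0.088 in tumour nuclei.

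Nuclei with tumour markers plus Xist or Ptprc, which were left out of the tumour gate except where stated, had 377 CPM of Col1a1 in Sun1_KO and 229 CPM in Sun1_WT. They had 94.8 CPM of Col5a2 in Sun1_KO and 61.8 CPM in Sun1_WT.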

How the results depend on the processing

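The counts of collagen genes at least 1.5-fold higher and lower in Sun1_KO tumour nuclei (6 and 2) and their median (0.31) moved as follows. With a minimum of 20 UMIs they were 10, 4 and 0.10 over 34 genes, where 15.9% of all genes were higher and 10.9% lower. With 500 UMIs they were 0, 1 and -0.028, as only 14 genes were left, where the shares were 7.27% and 7.64%. Thinned to 3000 UMIs they were 1, 1 and 0.0026 over 14 genes, where 9.09% of all genes were higher and 8.57% lower. None of the 6 higher genes of the main setting reached the minimum after thinning, and the higher gene there was Col6a2 at 0.63. With host markers allowed they were 12, 2 and 0.47 over 27 genes, where 14.1% of all genes were higher and 9.42% lower. Without decorin-high nuclei they were 8, 1 and 0.47 over 22 genes, where the shares were 11.9% and 9.27%. Without nuclei with Pi16, Thy1, Lum or Mfap5 UMIs, chosen after seeing the data, they were 5, 1 and 0.33. The shares there were 10.8% and 9.34%. TMM and median-ratio scaling gave 4 and 2 with medians of 0.10 and 0.18, and shifted the median of all genes to -0.07 and 0.00. With TMM 4.65% of all genes were higher and 16.5% lower, and with median-ratio scaling 6.2% and 13.6%. Mitochondrial genes kept in the total gave 4, 2 and 0.24, where 7.92% of all genes were higher and 11.5% lower. The mean over nuclei of each nucleus's own CPM gave 4, 2 and 0.20, where the shares were 10.6% and 9.96%. At 2-fold 1 was higher and 1 lower, where 2.3% of all genes were higher and 2.99% lower. Col10a1 had -0.19 without decorin-high nuclei, -0.69 in nuclei of 10000 UMIs or more and -0.58 with the fibroblast-marker nuclei left out, and Col24a1 1.25 with host markers allowed.

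With states limited to the highest 10% of nuclei the higher and lower counts were 3 and 0 of 12 genes in the hypoxic and 2 and 0 of 13 in the G2/M state. They were 0 and 0 of 13 in the S phase, 0 and 1 of 13 in the interferon and 1 and 2 of 14 in the decorin-high state. The shares over all genes at this limit are not given here, so these counts have no background to be read against. With TMM, modification had 2 lower, export 1 lower, processing 1 higher and receptors 0 higher, where 4.65% of all genes were higher and 16.5% lower. The cause of these moves was not tested where none is named. The accessibility counts, 2 and 0, did not change when nuclei were binarised or when both peaks had to overlap by at least 0.5 of their length. No paired analysis was possible because each genotype has 1 library per assay, so that leaving out a replicate leaves no comparison.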
